A study of Mus musculus with 9 samples.

Results

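Vegfa, Vegfc, Pgf, Pdgfb, Cxcr4, Esm1 and Igfbp3 encode the growth factors and tip cell proteins with which growing blood vessels sprout, and their accessible chromatin was followed in lung endothelial cells of the mouse across 3 ages. The 7 genes were a fixed list of 21887 protein-coding genes, and all 7 were among the 14452 genes tested, those with a mean of at least 1 peak per library. Peaks centred inside a gene body were given to that gene, and all others to whichever gene ended closest, up to 100 kb away. The assay was ATAC-seq, which maps open DNA by where a transposase can insert, and the peaks are the stretches called open. Infant, young adult and mature adult mice gave 3 libraries each, all of lung endothelial cells isolated by fluorescence-activated sorting. The labels give neither age in days nor strain and leave unsaid whether replicate libraries stem from different animals, so a p-value reflects the spread between libraries, which may be technical. The study's title and design text pose the question of how endothelial chromatin differs between the growing and the quiescent vessel.

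Vessels grow by sprouting: vascular endothelial growth factor A, the product of Vegfa, binds receptors on endothelial cells and selects tip cells, which lead a sprout while stalk cells follow. Vegfc acts mainly on lymphatic vessels, Pgf (placental growth factor) binds VEGF receptor 1, and tip cells secrete PDGF-B, the product of Pdgfb, to draw in pericytes. Cxcr4 is the receptor for the chemokine CXCL12, Esm1 (endocan) is a secreted proteoglycan made by tip cells, and Igfbp3 is a secreted protein that binds insulin-like growth factors.

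The lists held between 88856 and 94646 peaks in infant, 67550 and 68366 in young adult and 59793 and 64208 in mature adult libraries. Adult lists were thus shorter throughout, and sequencing depth is unknown. Peak numbers were therefore tested both scaled to the length of the list, which was the main test, and unscaled. Scaling shifted all genes: the median change over all genes, mature adult against infant, was 0.14 (log2) scaled and -0.31 unscaled, and young adult against infant 0.13 and -0.25. Each change below is to be read against the median of its own scale. The peaks of young adult replicate 3 and of mature adult replicate 1 were narrower, with mean widths of 487 and 495 bp against 530 bp or more in the other libraries.

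Whether the 250 bases before the annotated start of a gene lay under a peak separated the genes, and the windows of 4 of them are printed for that reason (RefSeq, GRCm38.p6, the same build as mm10). All are on the minus strand and are read 5′ to 3′ toward the start. Capitals mark GGAA or its complement TTCC, the core of sites for ETS transcription factors such as the endothelial factor ERG. The windows are chr11:7213924-7214173 for Igfbp3, chr12:85177314-85177563 and chr12:85175983-85176232 for starts 1 and 2 of Pgf, chr1:128592300-128592549 for Cxcr4 and chr17:46032378-46032627 for start 1 of Vegfa.
Igfbp3: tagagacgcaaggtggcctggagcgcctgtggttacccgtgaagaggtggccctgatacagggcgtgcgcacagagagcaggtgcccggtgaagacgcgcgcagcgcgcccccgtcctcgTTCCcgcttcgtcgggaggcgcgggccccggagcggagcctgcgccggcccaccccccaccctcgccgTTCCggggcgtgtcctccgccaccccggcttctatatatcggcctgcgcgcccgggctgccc
Pgf start 1: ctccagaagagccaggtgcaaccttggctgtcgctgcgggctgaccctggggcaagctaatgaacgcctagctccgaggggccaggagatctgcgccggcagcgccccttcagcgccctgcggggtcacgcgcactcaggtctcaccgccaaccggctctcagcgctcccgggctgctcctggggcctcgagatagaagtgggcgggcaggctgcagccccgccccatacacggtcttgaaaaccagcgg
Pgf start 2: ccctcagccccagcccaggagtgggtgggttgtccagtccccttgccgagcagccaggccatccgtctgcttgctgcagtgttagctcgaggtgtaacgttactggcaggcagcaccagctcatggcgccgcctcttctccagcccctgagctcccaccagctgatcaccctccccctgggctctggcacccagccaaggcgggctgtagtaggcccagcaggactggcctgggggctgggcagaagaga
Cxcr4: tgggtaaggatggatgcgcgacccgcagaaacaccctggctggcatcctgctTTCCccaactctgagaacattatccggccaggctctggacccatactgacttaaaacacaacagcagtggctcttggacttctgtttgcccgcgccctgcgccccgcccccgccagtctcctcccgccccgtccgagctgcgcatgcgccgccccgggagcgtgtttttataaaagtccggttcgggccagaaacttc
Vegfa start 1: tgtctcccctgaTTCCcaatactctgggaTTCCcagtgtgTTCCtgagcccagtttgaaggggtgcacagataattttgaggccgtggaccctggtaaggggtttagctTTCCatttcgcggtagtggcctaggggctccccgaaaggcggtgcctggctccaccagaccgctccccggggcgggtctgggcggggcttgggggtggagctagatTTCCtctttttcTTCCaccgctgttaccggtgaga

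The Igfbp3 window lay whole under a peak in each infant library. It held 233, 78 and 0 bases under a peak in the young adult libraries and 0 in each mature adult library. At start 1 of Pgf, 250, 170 and 158 bases lay under a peak in infant libraries, 0, 145 and 0 in young adult libraries and 0 in each mature adult library. Both genes thus lost the called peak at the start with age, and young adult libraries were split at both. At start 2 of Pgf the infant libraries had 250, 188 and 171 bases under a peak and the 6 adult libraries had 0. The windows of Cxcr4, Vegfc and start 1 of Vegfa lay under a peak over all 250 bases in all 9 libraries, and that of Esm1 over 243 to 250 bases. Start 2 of Vegfa had no peak in any library. Thus 4 of the 8 windows were under a peak in all 9 libraries, against 48.7% of all windows. Of the 8 windows of these genes, 3 were under a peak in all infant and in no mature adult library, against 3.92% of the 21263 windows of protein-coding genes. None of the 8 windows did the reverse, which 0.0705% of all windows did. These windows belong to 6 of the 7 genes, since RefSeq gave no window for Pdgfb. The absence of a peak does not show a window to be closed, since a weak signal can stay below the threshold of the peak caller.

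**Figure D1:**
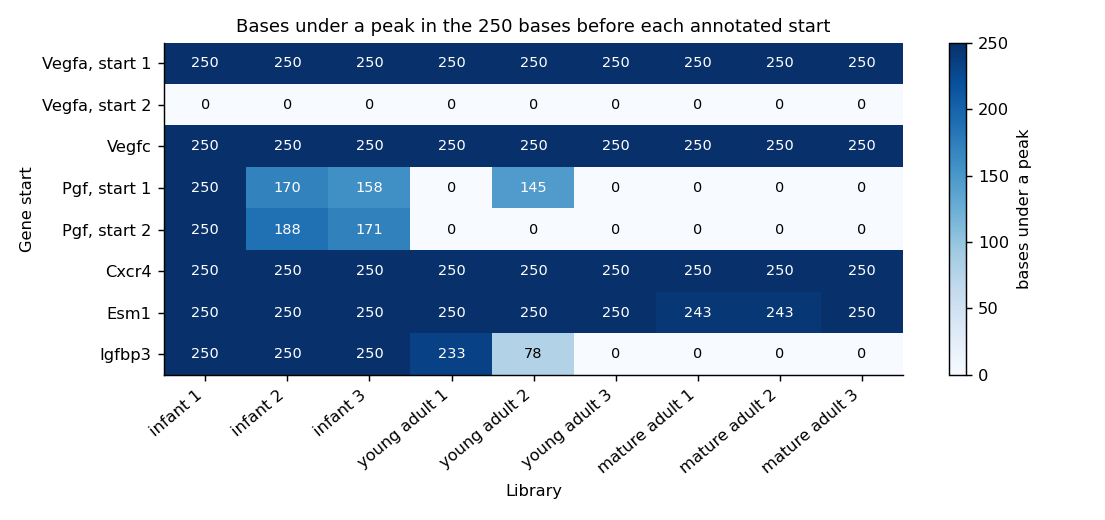
Bases under a peak, from 0 to 250, in the window before each of 8 annotated starts (rows) in each of the 9 libraries (columns, by age). The windows of Pgf and Igfbp3 are empty in the mature adult libraries, while those of Vegfc, Cxcr4 and start 1 of Vegfa are full in every library.

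The letters of the windows were described on both strands for 7 motifs, over all 32851 promoter windows. GGAA occurred 6 times before start 1 of Vegfa, 3 times in the Esm1 window, 2 times each in that of Igfbp3 and before start 2 of Vegfa, 1 time each in those of Cxcr4 and Vegfc and not in either Pgf window, and 93.4% of all windows held it. CCGCCC, the GC box of SP and KLF factors, occurred 3 times at Cxcr4, 2 times each at Vegfc, start 1 of Pgf and start 1 of Vegfa, 1 time at start 2 of Vegfa, and not at Igfbp3, Esm1 or start 2 of Pgf (32.7% of all windows). CACCC, the KLF core, occurred 3 times each at Vegfc, Igfbp3 and start 2 of Pgf, 2 times at start 1 of Vegfa, 1 time each at Cxcr4 and start 2 of Vegfa and not at Esm1 or start 1 of Pgf (52.0% of all windows). The KLF core and the GC box can share bases where they adjoin. ACGTG, the hypoxia response core, was found only before start 2 of Vegfa (16.6% of all windows). AGATAA, the motif of GATA factors, was found only before start 1 of Vegfa (9.99%), and the AP-1 motif TGANTCA, which 6.75% of all windows held, was in none of the 8 windows. The SOX core AACAAT, held by 9.42% of all windows, was in none of them either. A match is a string of letters and not a shown site.

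Across ages, the VEGF and tip genes did not move as 1 group. Relative to the length of the lists, Igfbp3, Pgf and Cxcr4 had fewer peaks in mature adult than in infant cells, Pdgfb had more, and Vegfa, Vegfc and Esm1 did not pass the test. Of the 7 genes 3 were lower, against 13.8% of all genes tested, and 1 was higher, against 30.0% (limma, adjusted p below 0.05). Unscaled, 4 of 7 were lower (Pdgfb among them), against 29.4% of all genes, and 0 were higher, against 1.44%. The median change of the 7 genes was -0.01 scaled and -0.52 unscaled. Together they held 72, 73 and 67 peaks in the infant, 51, 54 and 53 in the young adult and 41, 45 and 45 in the mature adult libraries.

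**Figure D2:**
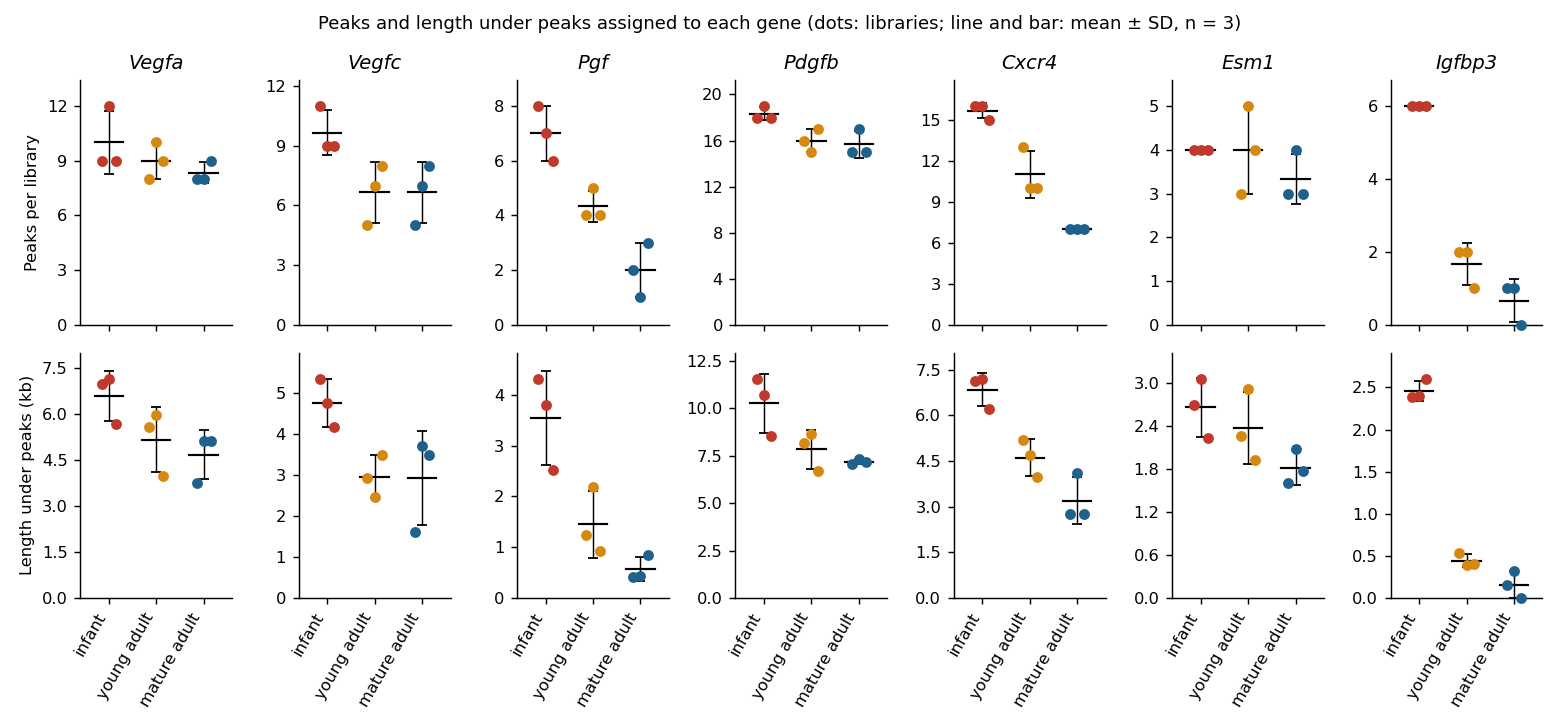
Peaks (top) and length under peaks in kb (bottom) assigned to each of the 7 genes, unscaled; dots are libraries, lines and bars the mean ± SD of 3 libraries of an age. Igfbp3 had 6 peaks in every infant library and 0 or 1 in the mature adult libraries, while the ages overlap in peak number at Vegfa and Esm1. In unscaled length under peaks the infant and mature adult libraries do not overlap at these genes.

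Among the ligands, Vegfa did not pass the test at any comparison of peak number. It had 9, 12 and 9 peaks in the infant, 8, 10 and 9 in the young adult and 8, 8 and 9 in the mature adult libraries. The ages overlapped. The change, mature adult against infant, was 0.28 ± 0.14 (log2, SE, limma adjusted p = 0.136), and unscaled it was -0.24 (adjusted p = 0.229). Without infant replicate 2, the library with 12 peaks, it was 0.42 (adjusted p = 0.0239), and that for young adult against infant 0.40 (adjusted p = 0.0315) in place of 0.26 (adjusted p = 0.178). Length under peaks was 6992, 7138 and 5662 bp in infant, 5563, 5956 and 3973 bp in young adult and 3738, 5132 and 5127 bp in mature adult libraries, which did not pass once scaled (adjusted p = 0.437) and was lower unscaled (-0.50, adjusted p = 0.0485). Vegfa had 15 merged regions, the stretches formed by joining overlapping peaks of all libraries, and 6 of them were open in all 9. No region was infant only, that is open in all infant and in no adult library. The region over the start, chr17:46030912-46033102, was the widest, with 2107, 1926 and 1254 bp under peaks in infant, 1337, 1150 and 1038 bp in young adult and 999, 1338 and 1154 bp in mature adult libraries. At chr17:45950462-45951327, 66.1 kb outside the gene, peaks covered 796, 855 and 806 bp in infant, 675, 707 and 336 bp in young adult and 385, 373 and 380 bp in mature adult libraries, so that the infant and mature adult libraries did not overlap in width although all had the region.

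Vegfc had 11, 9 and 9 peaks in infant, 5, 7 and 8 in young adult and 5, 7 and 8 in mature adult libraries. Infant libraries lay above both adult ages, but no more than the length of their lists: the scaled change was -0.01 ± 0.20 for mature adult against infant (limma adjusted p = 0.978) and -0.12 ± 0.20 for young adult against infant (adjusted p = 0.675). Unscaled, both changes were -0.52 (adjusted p = 0.122 and 0.155). Of its 13 regions 5 were open in all libraries, and 0 were infant only. The region over the start, chr8:54076780-54078345, covered 1565, 1467 and 1339 bp in infant, 1317, 1250 and 1160 bp in young adult and 994, 1286 and 1183 bp in mature adult libraries, and it lies where the body of Gm33153 overlaps that of Vegfc, so its peaks are not assigned to Vegfc without doubt. The start peak of mature adult replicate 1 (994 bp) and a peak of 1100 bp there in young adult replicate 2 were given to Gm33153, and the Vegfc numbers and tests leave them out. A region inside the gene at chr8:54162092-54162591 had peaks of 437, 459 and 424 bp in infants, none in young adults and 0, 224 and 331 bp in the mature adult libraries.

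Pgf had 8, 7 and 6 peaks in infant, 4, 5 and 4 in young adult and 2, 1 and 3 in mature adult libraries, and no 2 ages overlapped in these unscaled numbers. Scaled to list length, infant libraries had 6.24, 5.74 and 4.98 and young adult libraries 4.35, 5.40 and 4.37, so these ages overlapped. Counted as merged regions the numbers were 8, 7 and 6 in infant, 4, 5 and 3 in young adult and 2, 1 and 3 in mature adult libraries. By that count the young and mature adult libraries met at 3. Relative to list length its peaks fell by 1.18 ± 0.30 on the log2 scale in mature adult against infant libraries (limma adjusted p = 0.0154; unscaled -1.66, adjusted p = 0.00815). The length under peaks was 4309, 3789 and 2520 bp in infant, 1239, 2181 and 919 bp in young adult and 419, 430 and 839 bp in mature adult libraries. Scaled to the covered length of each library it fell by 1.91 ± 0.31 (adjusted p = 0.00168). For young adult against infant neither the peak number (-0.24, adjusted p = 0.571) nor the covered length (-0.81, adjusted p = 0.0697) passed, but the length did unscaled (-1.28, adjusted p = 0.0230), without young adult replicate 2 (-1.10, adjusted p = 0.0249) and without mature adult replicate 3 (-0.81, adjusted p = 0.0497). Inside the gene the region over start 1, chr12:85176980-85177568, held 588, 476 and 491 bp in infant, 0, 232 and 0 bp in young adult and 0 bp in all mature adult libraries. The region over start 2, chr12:85175946-85176772, was infant only, with 826, 373 and 348 bp. What remained in every library was a region inside the gene, chr12:85169138-85170115, 7.69 kb from start 1, with 635, 977 and 531 bp in infant, 412, 726 and 234 bp in young adult and 221, 430 and 261 bp in mature adult libraries. Without infant replicate 1 the call on peak number was lost (-1.11, adjusted p = 0.0532).

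Pdgfb had 18, 19 and 18 peaks in infant, 16, 15 and 17 in young adult and 15, 17 and 15 in mature adult libraries. Some of these peaks are parts of 1 region. Counted as merged regions the numbers were 18, 17 and 17 in infant, 15, 14 and 15 in young adult and 13, 14 and 14 in mature adult libraries. The fits took peaks, and the number of merged regions was not tested. The direction of the change in peak number depended on the scale. Relative to list length it was higher in mature adult (0.31 ± 0.07, limma adjusted p = 0.0088) and in young adult libraries (0.22 ± 0.07, adjusted p = 0.0434) than in infant libraries, whereas unscaled numbers were lower (-0.22, adjusted p = 0.0414, and -0.19, adjusted p = 0.0942). With the rows as deposited, where an interval can be listed several times, the calls for mature adult (0.18, adjusted p = 0.231) and young adult (0.13, adjusted p = 0.446) were also lost. Of 17 alternative fits of the young adult call 11 lost it, among them those with the widest peaks (adjusted p = 0.131), without both libraries of narrower peaks (adjusted p = 0.131) and 6 of 9 that left out a library (infant replicates 1, 2 and 3, young adult replicates 1 and 3 and mature adult replicate 1, adjusted p from 0.053 to 0.129). Scaled length under peaks did not pass for mature adult against infant (0.13, adjusted p = 0.249), and unscaled it was lower (-0.49, adjusted p = 0.0132). Of 23 regions 10 were open in all libraries, among them chr15:80025501-80026379, 1.33 kb outside the gene, with 798 to 856 bp under peaks throughout. No start window was available for Pdgfb. The region over its gene end with the higher coordinate, chr15:80024183-80024637, was open in all libraries. It held 439, 397 and 421 bp in infant, 228, 250 and 375 bp in young adult and 324, 267 and 296 bp in mature adult libraries. There were 3 infant-only regions, chr15:80028831-80029222 (4.41 kb outside the gene), chr15:80043315-80043626 (18.9 kb outside) and chr15:80006209-80006499 inside the gene. Inside the gene chr15:80010251-80010617 was adult only, with 315, 280 and 244 bp in young adult and 276, 348 and 257 bp in mature adult libraries.

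The receptor gene Cxcr4 had fewer distal regions in adults, and its start region was open in all libraries. It had 16, 16 and 15 peaks in infant, 13, 10 and 10 in young adult and 7 in each mature adult library, and no 2 ages overlapped in these unscaled numbers. Scaled to list length, infant libraries had 12.5, 13.1 and 12.5 and young adult libraries 14.1, 10.8 and 10.9, so these ages overlapped. The scaled number fell by 0.58 ± 0.10 on the log2 scale in mature adult against infant libraries (limma adjusted p = 0.00268; unscaled -1.11, adjusted p = 0.000409). Some of these peaks are parts of 1 region: counted as merged regions the numbers were 14, 14 and 13 in infant, 11, 9 and 9 in young adult and 6 in each mature adult library. Peaks farther than 10 kb from the gene numbered 10, 9 and 9 in infant, 6, 5 and 5 in young adult and 3 in each mature adult library. With genes limited to 10 kb the change was -0.10 (adjusted p = 0.589), with rows as deposited -0.27 (adjusted p = 0.142), and with an equal number of the widest peaks from every library -0.58 (adjusted p = 0.0940).

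Around the Cxcr4 start, chr1:128590803-128592801 was covered over 1452, 1400 and 1394 bp in infant, 1547, 1416 and 1389 bp in young adult and 883, 1947 and 888 bp in mature adult libraries. Infant-only regions lay at chr1:128633729-128634172 (41.7 kb upstream of the start), chr1:128649343-128649755 (57.2 kb upstream), chr1:128574872-128575304 (17.2 kb downstream) and chr1:128546953-128547361 (45.1 kb downstream). A region 22.7 kb upstream, chr1:128614624-128615366, was adult only, with 742, 473 and 418 bp in young adult and 382, 514 and 409 bp in mature adult libraries and no peak in infants. Near it but apart from it, chr1:128612678-128613584 was open in all 9 libraries, with 845, 844 and 841 bp in infant, 405, 394 and 449 bp in young adult and 372, 436 and 377 bp in mature adult libraries. The infant and adult ages did not overlap in width there. The peaks of 2 other regions dropped out stepwise. The region chr1:128580195-128580739 had 544, 533 and 540 bp in infant, 223, 307 and 0 bp in young adult and 0 bp in each mature adult library. The region chr1:128551757-128552269 had 512, 443 and 173 bp in infant, 154, 255 and 0 bp in young adult and 0 bp in each mature adult library. Young adults alone had chr1:128608015-128608411, with 250, 396 and 341 bp. Length under peaks fell by 0.48 ± 0.13 (adjusted p = 0.0145) in mature adult against infant libraries, a call that was lost within 10 kb (-0.11, adjusted p = 0.594) and without infant replicate 2 (adjusted p = 0.0516).

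**Figure D3:**
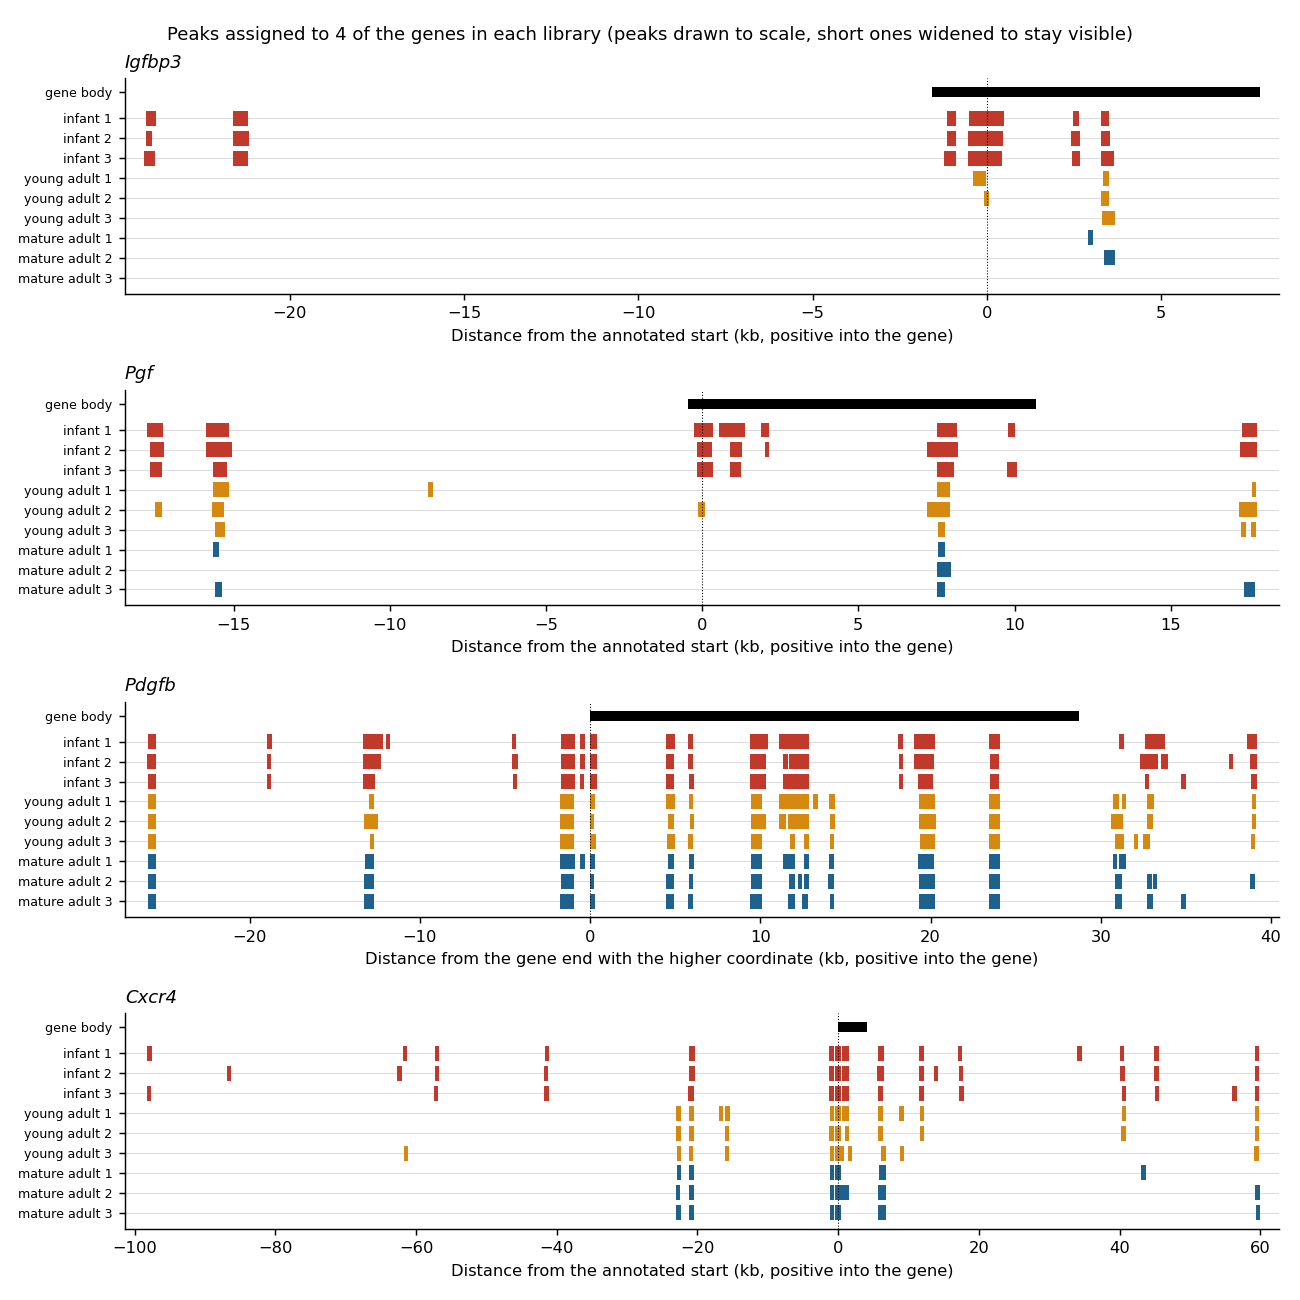
Peaks assigned to Igfbp3, Pgf, Pdgfb and Cxcr4 in each library (rows, by age) against the distance from the annotated start, or for Pdgfb from the gene end with the higher coordinate, in kb. Black bars are gene bodies. The column of peaks at the Igfbp3 and Pgf starts ends with the infant and some young adult libraries, and at Cxcr4 a column 22.7 kb upstream is present in the 6 adult libraries and in no infant library.

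Of the secreted proteins, Esm1 had few regions and did not pass the test. It had 4 peaks in each infant library, 3, 5 and 4 in young adult and 3, 4 and 3 in mature adult libraries. The scaled change was 0.24 ± 0.17 for mature adult against infant (limma adjusted p = 0.292), and the unscaled one -0.24 (adjusted p = 0.377). Young adult against infant it was 0.35 (adjusted p = 0.155), and 0.52 without young adult replicate 1 (adjusted p = 0.0276). With peaks limited to 10 kb from the gene, 2 in every library, the scaled change passed (0.44, adjusted p = 0.000202, and for young adult 0.33, adjusted p = 0.00102): with equal numbers in all libraries it follows from the length of the lists alone. Length under peaks of Esm1 was 2692, 3057 and 2235 bp in infant, 2261, 2924 and 1928 bp in young adult and 1602, 2082 and 1774 bp in mature adult libraries. Infant and mature adult libraries did not overlap in it unscaled, and it did not pass once scaled. Of 5 regions 3 were open in all libraries, at the start (chr13:113208887-113210292), at chr13:113223884-113224771 (6.22 kb outside the gene) and at chr13:113244770-113245657 (27.1 kb outside). The start region covered 745, 1405 and 662 bp in infant, 629, 892 and 423 bp in young adult and 382, 394 and 496 bp in mature adult libraries, and the region at 27.1 kb covered 753 to 867 bp in every library.

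Igfbp3 was the gene of the 7 with the largest fitted fall. It had 6 peaks in each infant library, 2, 2 and 1 in young adult and 1, 1 and 0 in mature adult libraries. Infant libraries were well apart from both adult ages, which overlapped. The scaled change was -2.25 ± 0.48 for mature adult against infant (limma adjusted p = 0.00686; unscaled -2.64, adjusted p = 0.0067), a size that depends on the 0.5 added before taking logarithms. Length under peaks was 2388, 2400 and 2600 bp in infant, 535, 396 and 398 bp in young adult and 150, 319 and 0 bp in mature adult libraries. The scaled covered length fell by 3.08 ± 0.48 on the log2 scale in mature adult libraries against infant (limma adjusted p = 0.00139), and in young adult libraries it fell by 1.79 ± 0.48 (adjusted p = 0.0196). The number for young adult against infant did not pass (-1.25, adjusted p = 0.0796), but did without mature adult replicate 3 (-1.26, adjusted p = 0.00432), with rows as deposited (-1.58, adjusted p = 0.0434) and with 1 added in place of 0.5 (-1.09, adjusted p = 0.0329). With an equal number of the widest peaks the call on number was lost (-1.64, adjusted p = 0.0837), and the young adult call on covered length was lost without any of the infant replicates or without young adult replicate 2 (adjusted p from 0.0509 to 0.055), within 10 kb (-1.34, adjusted p = 0.0541) and without both libraries of narrower peaks (-1.79, adjusted p = 0.0522). The region over the start, chr11:7213444-7214463, held 985, 1005 and 971 bp in infant, 383, 150 and 0 bp in young adult and 0 bp in each mature adult library. Of 7 regions 4 were infant only: chr11:7214812-7215141 and chr11:7211252-7211502 inside the gene, and chr11:7235098-7235545 and chr11:7237766-7238102, 19.8 and 22.4 kb outside it. A region inside the gene, chr11:7210236-7210663, had peaks in the infant and young adult libraries and in mature adult replicate 2, with 319 bp.

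**Figure D4:**
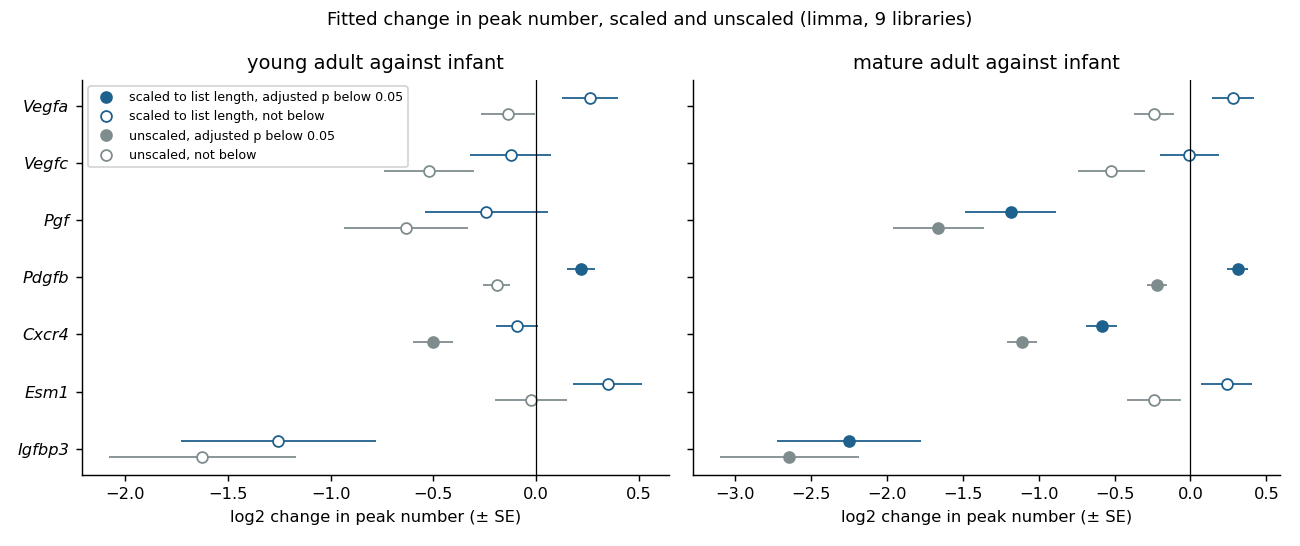
Fitted log2 change in peak number (± SE, limma over 9 libraries) for young adult against infant (left) and mature adult against infant (right), scaled to list length (blue) and unscaled (grey); filled points have an adjusted p below 0.05. Pgf, Cxcr4 and Igfbp3 lie below 0 on both scales at the right, while Pdgfb lies at 0.31 scaled and at -0.22 unscaled.

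Young adult against infant, 1 of 7 genes passed higher (Pdgfb), against 25.6% of all genes tested, and 0 lower, against 9.34%. At an unadjusted p below 0.05, Igfbp3 was lower as well, and 6436 of the 14452 genes tested were below it in either direction. Unscaled, Cxcr4 was lower (-0.50, limma adjusted p = 0.0163), with 17.5% of all genes lower, while its scaled change was -0.09 (adjusted p = 0.527), or -0.21 (adjusted p = 0.035) without young adult replicate 1. Mature adult against young adult, 0 of 7 genes passed, and 0.844% of all genes did. Before adjustment 2 genes were below 0.05, Cxcr4 (-0.49, limma adjusted p = 0.126) and Pgf (-0.94, adjusted p = 0.234), beside 1393 of the 14452 genes tested. Igfbp3 had a change of -0.995 (adjusted p = 0.293). For covered length 3 of 7 genes were lower in mature adult than in infant libraries (18.8% of all genes), 1 of 7 in young adult than in infant libraries (12.1%) and 0 of 7 in mature adult than in young adult libraries (0.796%), where 3 genes were below 0.05 before adjustment, Cxcr4, Igfbp3 and Pgf (limma adjusted p = 0.226, 0.279 and 0.173). By covered length 2045 of the 14452 genes tested were below 0.05 there before adjustment, in either direction. These comparisons share libraries and are not independent.

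In unscaled numbers the 3 mature adult libraries all lay below the 3 infant libraries at 5 of the 7 genes (Vegfc, Pgf, Pdgfb, Cxcr4 and Igfbp3), and so did 35.6% of all genes. The 3 young adult libraries lay below the infant libraries at the same 5 genes (27.4% of all genes), and the mature adult below the young adult libraries at Pgf and Cxcr4 (4.39%). At Pgf the latter held for peaks only: young adult replicate 3 and mature adult replicate 3 both had 3 merged regions. For 3 libraries against 3 the smallest two-sided exact permutation p is 0.10, so no such test of a single gene was made.

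Mean peak width could be tested for 6 of the 7 genes, since Igfbp3 had no peak in mature adult replicate 3. None passed for mature adult against infant (8.87% of all genes tested for width did), young adult against infant (3.80%) or mature adult against young adult (0.167%) by limma. Before adjustment 1 value was below 0.05, that of Pgf for mature adult against infant (-0.76, limma adjusted p = 0.152), with mean widths of 306 ± 113 bp in mature adult and 500 ± 69 bp in infant libraries (SD, n = 3). Of the 13208 genes tested for width 3675 were below 0.05 in that comparison before adjustment. The mean Cxcr4 peak was 457 ± 111 bp wide in mature adult and 436 ± 20 bp in infant libraries.

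The 7 genes had 95 merged regions. Of these 12, or 12.6%, were open in all infant and no adult library, against 9.46% of the 111778 regions assigned to any gene. Adult-only regions numbered 2, or 2.11% (0.716% of all regions), both described above, and 29 regions, or 30.5%, were open in all libraries (34.6% of all). By gene, 4 of 7 regions of Igfbp3, 4 of 23 of Cxcr4, 3 of 23 of Pdgfb and 1 of 9 of Pgf were infant only, and 0 of those of Vegfa, Vegfc and Esm1. Infant-only regions were narrow, with a median width of 400 bp, against 892 bp for regions open in all libraries, and over all genes these medians were 434 and 889 bp. A merged region spans all peaks joined in it, so its width can grow with the number of libraries that have it. Part of this difference can thus follow from the joining. With an equal number of the widest peaks from every library 3 regions were infant only in place of 12. Requiring peaks to cover at least 50% of a region left 17 open in all libraries in place of 29.

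Some markers of pericytes and smooth muscle, fibroblasts and lymphatic endothelium moved with age as well, while no epithelial or leukocyte marker tested passed scaled. Of all genes tested 13.8% were lower and 30.0% higher scaled in mature adult than in infant libraries, and 29.4% lower and 1.44% higher unscaled. In young adult against infant libraries 9.34% were lower scaled and 17.5% unscaled. Pericyte and smooth muscle markers held 44 to 46 peaks in infant, 21 to 24 in young adult and 20 to 23 in mature adult libraries, and 3 of 7 were lower in mature adult than in infant libraries (Abcc9, Cspg4 and Kcnj8) and 1 higher (Myh11) by scaled number. Abcc9 had 3 peaks in each infant library and none in the adult libraries. Fibroblast markers held 46 to 50, 19 to 23 and 18 peaks in that order of ages, with 2 of 4 tested lower in mature adult than in infant libraries scaled (Col1a1 and Col1a2) and 4 of 4 unscaled. Lymphatic endothelial markers held 20 to 23, 7 to 11 and 9 to 16 peaks, and Pdpn was at 0 throughout. Of 4 tested, Mmrn1 and Prox1 were lower in young adult than in infant libraries on both scales, and in mature adult than in infant libraries unscaled, where 0 passed scaled. Epithelial markers held 15 to 20, 7 to 12 and 9 to 10 peaks, with Sftpc at 0 throughout, and leukocyte markers 5 to 6, 4 to 8 and 4 to 5, with Cd68 and Lyz2 at 0 throughout. Of the 2 epithelial markers tested 0 passed scaled, and unscaled Epcam was lower in mature adult and Cdh1 in young adult libraries, each against infant. The 1 leukocyte marker tested did not pass on either scale. Endothelial markers held 137 to 148, 127 to 137 and 116 to 134 peaks, and 5 of 6 were higher in mature adult libraries scaled, 0 higher and 1 lower unscaled. Whether other cells carried the peaks of Pgf, Igfbp3 or Cxcr4 that were missing in adults was not tested, and in such bulk samples fewer cells of a type and less open chromatin per cell cannot be told apart.

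Of the other VEGF ligands and receptors 5 of 7 were higher (Flt1, Flt4, Kdr, Nrp1 and Vegfb) and 1 lower (Nrp2) in mature adult than in infant libraries scaled, beside 30.0% of all genes higher and 13.8% lower. Unscaled 0 were higher and 2 lower, Kdr and Nrp2, beside 29.4% of all genes lower, so that Kdr, the main VEGF receptor, changed sides. Vegfb had 1 peak in every library, so its scaled call follows from the length of the lists alone. Nrp2, a coreceptor for VEGF-C, had 21, 21 and 17 peaks in infant, 9, 10 and 7 in young adult and 6, 6 and 7 in mature adult libraries (-1.03 ± 0.14, limma adjusted p = 0.000539). Flt1, VEGF receptor 1 and the receptor of PlGF, had 38, 42 and 36, then 38, 42 and 37, then 33, 34 and 43 peaks at these ages. It was higher in young adult than in infant libraries only by the scaled number (0.43, adjusted p = 0.0159; unscaled 0.01, adjusted p = 1).

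Among partners of the 7 proteins 0 of 7 were higher and 2 lower scaled, and 5 lower unscaled, for mature adult against infant, beside the same shares of all genes. Igf1, insulin-like growth factor 1, which IGFBP-3 binds, had 16, 15 and 17 peaks in infant, 4, 3 and 8 in young adult and 2 in each mature adult library (-2.23 ± 0.30, limma adjusted p = 0.000558). Pdgfrb, the receptor of PDGF-B and a pericyte gene, had 5, 4 and 5 peaks in infant, 1, 0 and 1 in young adult and 1, 1 and 0 in mature adult libraries (-1.92 ± 0.61, adjusted p = 0.0368). Both were also lower in young adult libraries (Igf1 -1.29, adjusted p = 0.0119; Pdgfrb -1.98, adjusted p = 0.0391). Cxcl12, the ligand of CXCR4, had 9, 9 and 7 peaks in infant, 8, 7 and 6 in young adult and 7, 7 and 6 in mature adult libraries and did not pass.

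Of 20 other tip cell genes 7 were higher and 3 lower scaled, among them Lama4 and Nid2, for mature adult against infant, which is near the 30.0% and 13.8% of all genes. Unscaled 0 were higher and 8 lower (29.4% of all genes lower), among them Unc5b, which was higher scaled. Nid2, a basement membrane protein, had 13, 11 and 13 peaks in infant, 5, 5 and 4 in young adult and 4 in each mature adult library (-0.998 ± 0.102, limma adjusted p = 0.000136). Lama4, a laminin chain, had 18, 19 and 17, then 9, 10 and 9, then 9, 9 and 7 peaks (-0.55 ± 0.11, adjusted p = 0.00587). Apln, the ligand apelin, with 10, 10 and 11, then 9, 12 and 10, then 11, 12 and 12 peaks, was higher by the scaled number only (0.69, adjusted p = 0.00117; unscaled 0.17, adjusted p = 0.276), and so was Cd34 (0.61, adjusted p = 0.000151; unscaled 0.08, adjusted p = 0.397). For young adult against infant, Plaur (0.64, adjusted p = 0.00761) and Nid1 (0.45, adjusted p = 0.0189) among the tip genes and Hey1 (0.50, adjusted p = 0.0496) among the stalk genes were higher scaled and did not pass unscaled (adjusted p = 0.214, 0.866 and 0.826). Of 8 stalk and phalanx genes 2 were higher and 1 lower scaled for mature adult against infant, and 3 lower unscaled. Lower scaled was Hes1, a target of Notch, with 31, 26 and 31, then 16, 18 and 14, then 12, 15 and 14 peaks (-0.54 ± 0.11, adjusted p = 0.00519). Of 6 hypoxia regulators 2 were higher scaled (Epas1 and Vhl), and 0 higher and 2 lower unscaled (Egln3 and Hif1a). Vhl had 1 peak in every library, so its scaled call follows from the length of the lists alone. Scaled, the median change was 0.19 for the tip genes, 0.12 for stalk genes, 0.13 for hypoxia regulators, 0.32 for the VEGF family and -0.24 for the partners, beside 0.14 for all genes. For mature adult against young adult 0 of the 48 genes of these 5 lists passed by limma, scaled or unscaled, and 5 scaled and 7 unscaled had an unadjusted p below 0.05. Of the 14452 genes tested 1393 scaled and 1552 unscaled did so.

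The genes most alike in scaled peak number over the 9 libraries, by Pearson's r of the log2 values, were Meak7 (0.931) and Soga1 (0.920) for Vegfa, Wnk1 (0.928) and Ubn2 (0.917) for Vegfc, Tbx19 (0.956) and Klhl6 (0.950) for Pgf, and Asap2 (0.969) and Zfp746 (0.962) for Pdgfb. For Cxcr4 they were Eif3m (0.984) and Slc22a8 (0.982), for Esm1 Lrrc72 (1.00) and Pigu (0.941), and for Igfbp3 2410004B18Rik (0.982) and Prkcb (0.978). The points share libraries and list lengths, and small whole numbers can coincide: Lrrc72 had the same number of peaks as Esm1 in every library. Klhl6 had 13, 10 and 9 peaks in infant, 8, 8 and 7 in young adult and 5, 3 and 5 in mature adult libraries, and Prkcb had 14, 16 and 14, then 5, 8 and 4, then 3, 3 and 1.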

How the data were processed

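Each of the 9 libraries was represented by the peak list that the authors deposited. Per the file headers the values are positions (chromosome, start and end) with no height, score or read count. Per the submitters' processing notes cutadapt, Bowtie2 and Picard were used, without versions, on mm10; which peak caller was run, and with what threshold, is not given in the sources used here. Whether starts count from 0 or 1 is not stated, so positions may be off by 1 bp. Depth is unknown, so no counting interval or detection limit was given. Lists can repeat an interval, in up to 14 rows, and each was counted once. Peak widths ran from 150 to 3477 bp.

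Genes came from the RefSeq table of GRCm38.p6; where bodies overlapped, the gene with the nearest end was taken. Strand and starts came from the RefSeq promoter table, which matched 6 of the 7 genes with 8 windows and had no entry for Pdgfb. Peaks sharing at least 1 bp were joined, which gave 126907 regions. For each gene the peak number, scaled to the mean list length, was tested as log2(number + 0.5), the covered length, scaled likewise, as log2(bp + 100), and the mean width as log2 bp, with limma 3.58.1 in R 4.3.3 (mean-variance trend, all 9 libraries in 1 fit, age as the only term). Benjamini-Hochberg adjustment ran over the 14452 genes tested, or 13208 with a peak in every library for width, with a threshold of 0.05. Only the fit of peak number, mature adult against infant, was checked on simulated data, and those of covered length and width were not. Changes were set there only in genes with more peaks than the filter asks for, a level that Igfbp3 did not reach. Python 3.11.15 with pandas 2.3.3 and scipy 1.17.1 was used for the rest. Groups and replicate numbers came from the labels' titles.

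The members, lists, markers and tests were chosen with earlier results of these data known. The rule for named items took all 7 genes, up to 4 genes per list with an adjusted p below 0.05 and the same direction unscaled, the 2 genes most alike per member, and per member the start region and up to 3 infant-only and 3 adult-only regions, widest first. Every other region was named after its values were seen. Alternatives were unscaled numbers, no filter, other pseudocounts, rows as deposited, a 10 kb limit, an equal number (59793) of the widest peaks, each library left out, both libraries that stood apart left out and the replicate number as a block. The check of start windows with the widest peaks was added after the data had been seen.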

Additional observations from a re-analysis of the deposited data

How the results depend on the processing

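Of the fitted values of the 7 genes that were recomputed (peak number, covered length and the width of Pgf), those not named here or in the report kept their direction and their side of the threshold. Where a value moved the cause was not tested, unless stated. Unscaled, the numbers of genes higher and lower were 163 and 2527 for young adult against infant, in place of 3703 and 1350, and 208 and 4244 for mature adult against infant, in place of 4341 and 1999. The direction reversed unscaled for Vegfa (-0.14 young adult and -0.24 mature adult against infant), Pdgfb (-0.19 and -0.22) and Esm1 (-0.024 and -0.24), and for the covered length of Vegfa (-0.50) and Pdgfb (-0.49) in mature adult against infant, by construction, since scaling raises the shorter adult lists. Cxcr4 in young adult against infant reversed with rows as deposited (0.067) and within 10 kb (0.23). Vegfc, at -0.01 scaled and -0.52 unscaled, turned positive in mature adult against infant within 10 kb (0.049), with the widest peaks (0.13), with both libraries that stood apart left out (0.15) and without single libraries (-0.14 to 0.15), and in young adult against infant ranged from -0.26 to 0.057 without single libraries.

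The number of genes called by peak number, 5053 for young adult against infant, was 1393 with the widest peaks, 2269 with rows as deposited and 2690 unscaled; 6340 for mature adult against infant was 2268 with the widest peaks. The 122 for mature adult against young adult became 557 with both libraries that stood apart left out, 77 with rows as deposited and 100 to 411 without single libraries. By covered length, 5528 for young adult against infant ranged from 3451 to 5824 without single libraries, and 133 for mature adult against young adult was 793 without both libraries that stood apart and 24 to 687 without single ones. By width, 502 for young adult against infant ranged from 208 to 443, 1172 for mature adult against infant from 406 to 1548 and 22 for mature adult against young adult from 8 to 85. Infant-only regions of the 7 genes numbered 3 with the widest peaks in place of 12, and regions open in all libraries 17 with at least 50% cover in place of 29. The 3 start windows of Pgf and Igfbp3 under a peak in infant and not in mature adult libraries numbered 3 also with the widest peaks.

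Same-numbered libraries deviated together with correlations of -0.17 to 0.17, 1 of 9 above 0.1. Libraries of other numbers gave -0.23 to 0.28, 2 of 18 above 0.1. The numbers thus gave no sign of a pairing, but deviations from means of 3 libraries cannot exclude one. With the replicate number as a block, the counts were 4873, 6047 and 65 by peak number, 4958, 7323 and 48 by covered length and 227, 751 and 2 by width (young adult against infant, mature adult against infant, mature adult against young adult), and the printed value of Pdgfb in young adult against infant lost its call (adjusted p = 0.0912).

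Depth is unknown, and a list gives no height, so a lost peak and a weaker one that misses the threshold look alike. Peak numbers per gene are small whole numbers, and a peak counts as 1 whether narrow or wide. Distal peaks were given to the nearest gene, which need not be the gene they act on.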
